A study of Mus musculus with 4 samples.

Results

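Oxidative phosphorylation was examined in 4T1, an established line of mouse mammary carcinoma cells, through the transcripts of its nuclear-encoded components. Members were chosen by symbol: names starting with Nduf, Uqcr, Cox4i, Cox5, Cox6, Cox7, Cox8 or Atp5, together with Sdha, Sdhb, Sdhc, Sdhd, Cyc1 and Cycs, with at least 1 TPM in at least 1 library. TPM, a transcript abundance unit, is a level corrected for transcript length and scaled to the same sum in every library. Of the 24411 listed genes, 94 carried such a symbol and 88 met the TPM minimum. The other 6 (Cox4i2, Cox6b2, Cox7b2, Cox8b, Cox8c and Ndufa4l2) were listed at 0 in all 4 libraries. Those just inside the minimum were Cox6a2, with a highest level of 11.8 TPM, and Atp5s, with 12.8 TPM, so no member lay near it. The members comprised 36 subunits of complex I, 4 of complex II, 9 of complex III, 14 of complex IV and 15 of complex V. Cytochrome c and 7 complex I assembly factors listed under Ndufaf symbols were also members. Atp5s and Atp5sl carry the prefix by name only and are counted with neither the 15 subunits nor the 7 assembly factors.

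The respiratory chain lies in the inner mitochondrial membrane. Complexes I and II pass electrons from NADH and succinate to ubiquinone, complex III passes them to the small soluble protein cytochrome c, and complex IV passes them to oxygen. Complexes I, III and IV pump protons, and complex V (ATP synthase) uses the resulting gradient to make ATP. Most subunits are encoded in the nucleus and imported, while a core set is encoded by the mitochondrial genome. Cytochrome c also has a role outside respiration, since its release into the cytosol activates caspases, and the mitochondrial route to apoptosis can act downstream of death receptors such as CD95.

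The groups were 2 control libraries and 2 libraries labelled CD95ko (here labelled knockout 1 and labelled knockout 2), all from 4T1 cells grown in RPMI 1640 with serum and without a further treatment named in the labels. Per the labels' protocols, Cas9 was delivered by lentivirus with blasticidin selection, a pair of guide RNAs aimed at exon 9 of the CD95 gene (symbol Fas) was transfected, and each knockout line was expanded from a single sorted cell. The protocols name untransduced 4T1 cells, the Cas9 line and a pair of clones as RNA sources, and the titles do not say which control is which. Each library is thus its own line or clone, the groups differ in clonal origin as well as in the targeted gene, and p-values measure only the spread between these libraries. Fas was listed at 49.4 TPM in control 1, 39.2 TPM in control 2, 15.8 TPM in labelled knockout 1 and 49.5 TPM in labelled knockout 2. Its level was below both controls in labelled knockout 1 alone (log2 difference -0.63 ± 0.54 SE between the groups, limma adjusted p = 0.615). A gene-level TPM cannot show an edit within exon 9, so these values do not tell whether either library carries it. Directions below therefore refer to the labels.

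Sequencing depth is unknown from TPM. The libraries had between 11193 and 12010 genes above 0, and cytosolic ribosomal protein genes held 23.1% to 29.9% of the TPM, highest in control 2. Control 2 also had the lowest median level over the 11167 tested genes, 16.3 TPM against 21.3 to 22.9 TPM in the other libraries. Of 10 mammary epithelial markers, 9 reached 1 TPM in every library and Krt5 was listed at 0. Their summed level was 6620 and 6210 TPM in the controls, against 10100 and 14300 TPM in the libraries labelled knockout 1 and 2. The keratins Krt7, Krt8 and Krt18 held most of these sums, whereas Cldn3 was below both controls in both libraries labelled knockout and Krt14 in labelled knockout 1. Markers of other cells were at or near 0: fibroblast markers summed to between 0.97 and 4.52 TPM with 5 of 8 at 0 throughout, endothelial markers reached at most 0.28 TPM with 3 of 4 at 0, and leukocyte markers were 0 to 22.2 TPM with 7 of 8 at 0 and Csf1r as the one detected. Striated muscle markers, relevant to the muscle isoforms among the members, summed to 5.43 and 1.47 TPM in the controls and 2.33 and 11.4 TPM in the libraries labelled knockout, with 5 of 8 at 0. In such bulk samples, fewer cells of a type and less RNA per cell cannot be told apart.

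Oxidative phosphorylation transcripts were abundant in every library. The median member was at 243 TPM in control 1, 275 TPM in control 2, 283 TPM in labelled knockout 1 and 234 TPM in labelled knockout 2, which is over 10 times the median of all tested genes in each library. Mean levels over the 4 libraries ran from 6.53 TPM for Cox6a2 to 1790 TPM for Atp5b, the catalytic beta subunit of ATP synthase. By complex, median levels were 188 to 234 TPM for complex I, 152 to 186 TPM for complex II, 321 to 405 TPM for complex III, 473 to 694 TPM for complex IV and 429 to 489 TPM for complex V. The complex I assembly factors, which act on the complex without staying in it, stood lower, at 12.2 to 22.8 TPM. This ranking of the assembly factors below the subunit groups was the same in all 4 libraries.

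**Figure D1:**
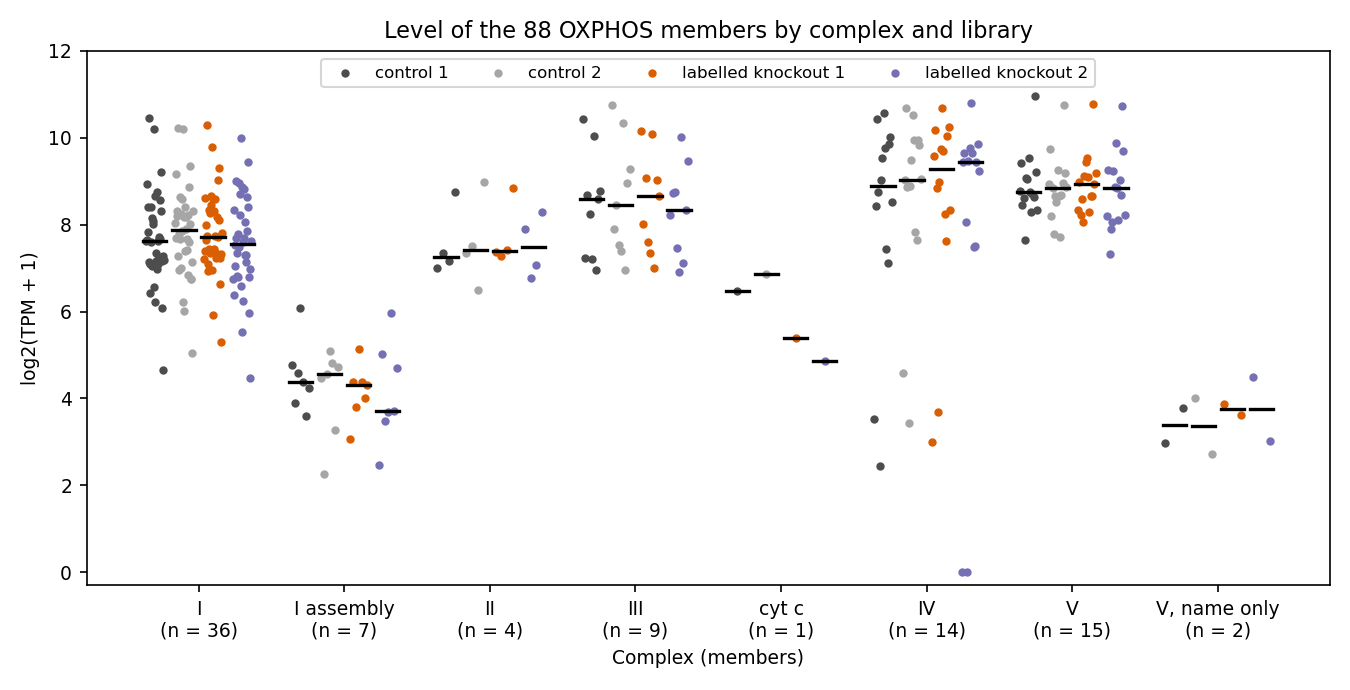
Level of each of the 88 members as log2(TPM + 1), grouped by complex, with 1 point per gene and library and a black bar at the median of each library. Subunits of complexes IV and V had the highest medians, the assembly factors of complex I had low ones, and Cox6a2 and Cox7a1 were at 0 in labelled knockout 2.

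The members together took up 3.23% of all TPM in control 1, 3.42% in control 2, 3.33% in labelled knockout 1 and 3.02% in labelled knockout 2. The groups overlapped, at 3.32% ± 0.132 (SD, n = 2) in the controls and 3.17% ± 0.218 (SD, n = 2) in the libraries labelled knockout. The difference of -0.15 percentage points was within the spread between replicates (exact permutation test, two-sided p = 0.667, where the smallest that 2 against 2 allows is 0.333). Complex V held the steadiest share, 0.798% to 0.833%. Complex III varied most in relative terms among the multi-subunit complexes, from 0.365% in labelled knockout 2 to 0.519% in control 2. Cytochrome c held 0.00872% and 0.0115% in the controls, against 0.00409% and 0.00281% in the libraries labelled knockout, and did not overlap between the groups.

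**Figure D2:**
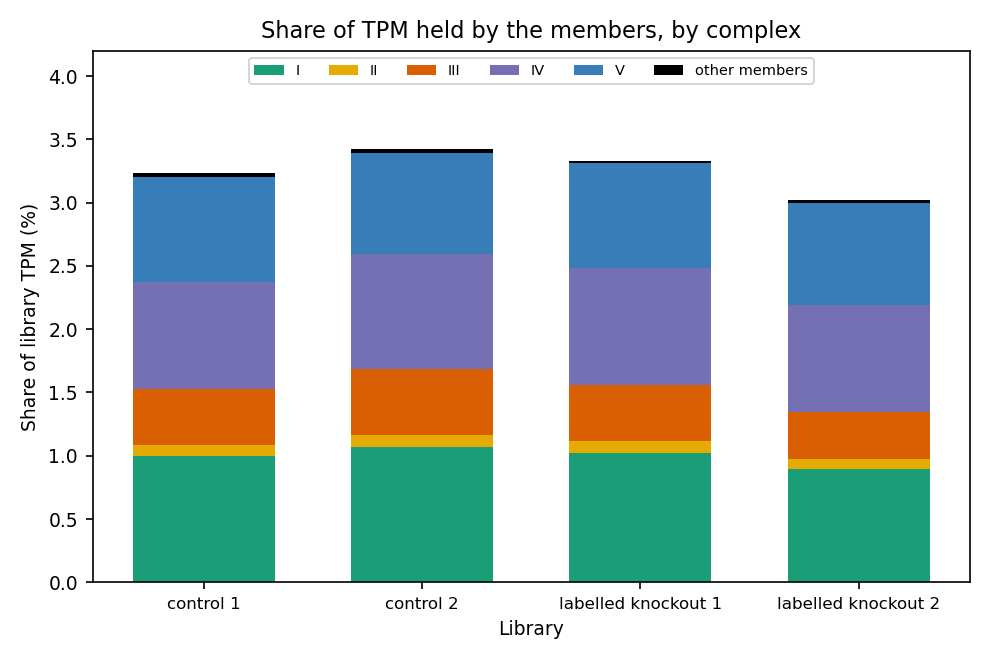
Share of each library's TPM held by the members, stacked by complex, where the black cap holds cytochrome c, the complex I assembly factors, Atp5s and Atp5sl. The totals lie between 3.02% and 3.42%, and the libraries labelled knockout lie above and below the value of control 1.

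No member passed an adjusted p of 0.05 between the groups (limma on log2(TPM + 1), fitted over all 11167 tested genes), against 6 genes or 0.0537% of the whole table. All 88 members passed the filter of 1 TPM in at least 2 libraries and were tested. At an unadjusted p under 0.05, 2 members were higher in the libraries labelled knockout (2.27%, against 9.25% of all tested genes) and 5 were lower (5.68%, against 5.68%). In either direction these were 7 members, or 7.95%, against 14.9% of all tested genes. Among all 88, values in the libraries labelled knockout lay above both controls for 22 members (25.0%, against 29.2%) and below both for 22 (25.0%, against 18.3%), which made 44 members (50%) without overlap, against 47.6%. A difference of at least 2-fold in all 4 pairs of libraries was seen in 0 members upward (3.54% of all tested genes) and in 2 downward, Cycs and Ndufaf4 (1.97% of all tested genes).

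The median log2 difference of the members was 0.05, with 48 positive and 40 negative, beside 0.13 over all tested genes. Per complex the medians were 0.05 for complex I, 0.02 for its assembly factors, 0.06 for complex II, -0.10 for complex III, 0.06 for complex IV and 0.11 for complex V. Differences of single members were smaller than those of all genes, with a median size of 0.33 against 0.50 on the log2 scale, and so were their standard errors, at a median of 0.32 against 0.49. The range ran from -2.56 for Cox7a1 to 1.61 for Ndufaf1. A log2(TPM + 1) difference understates the change of low genes such as these.

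**Figure D3:**
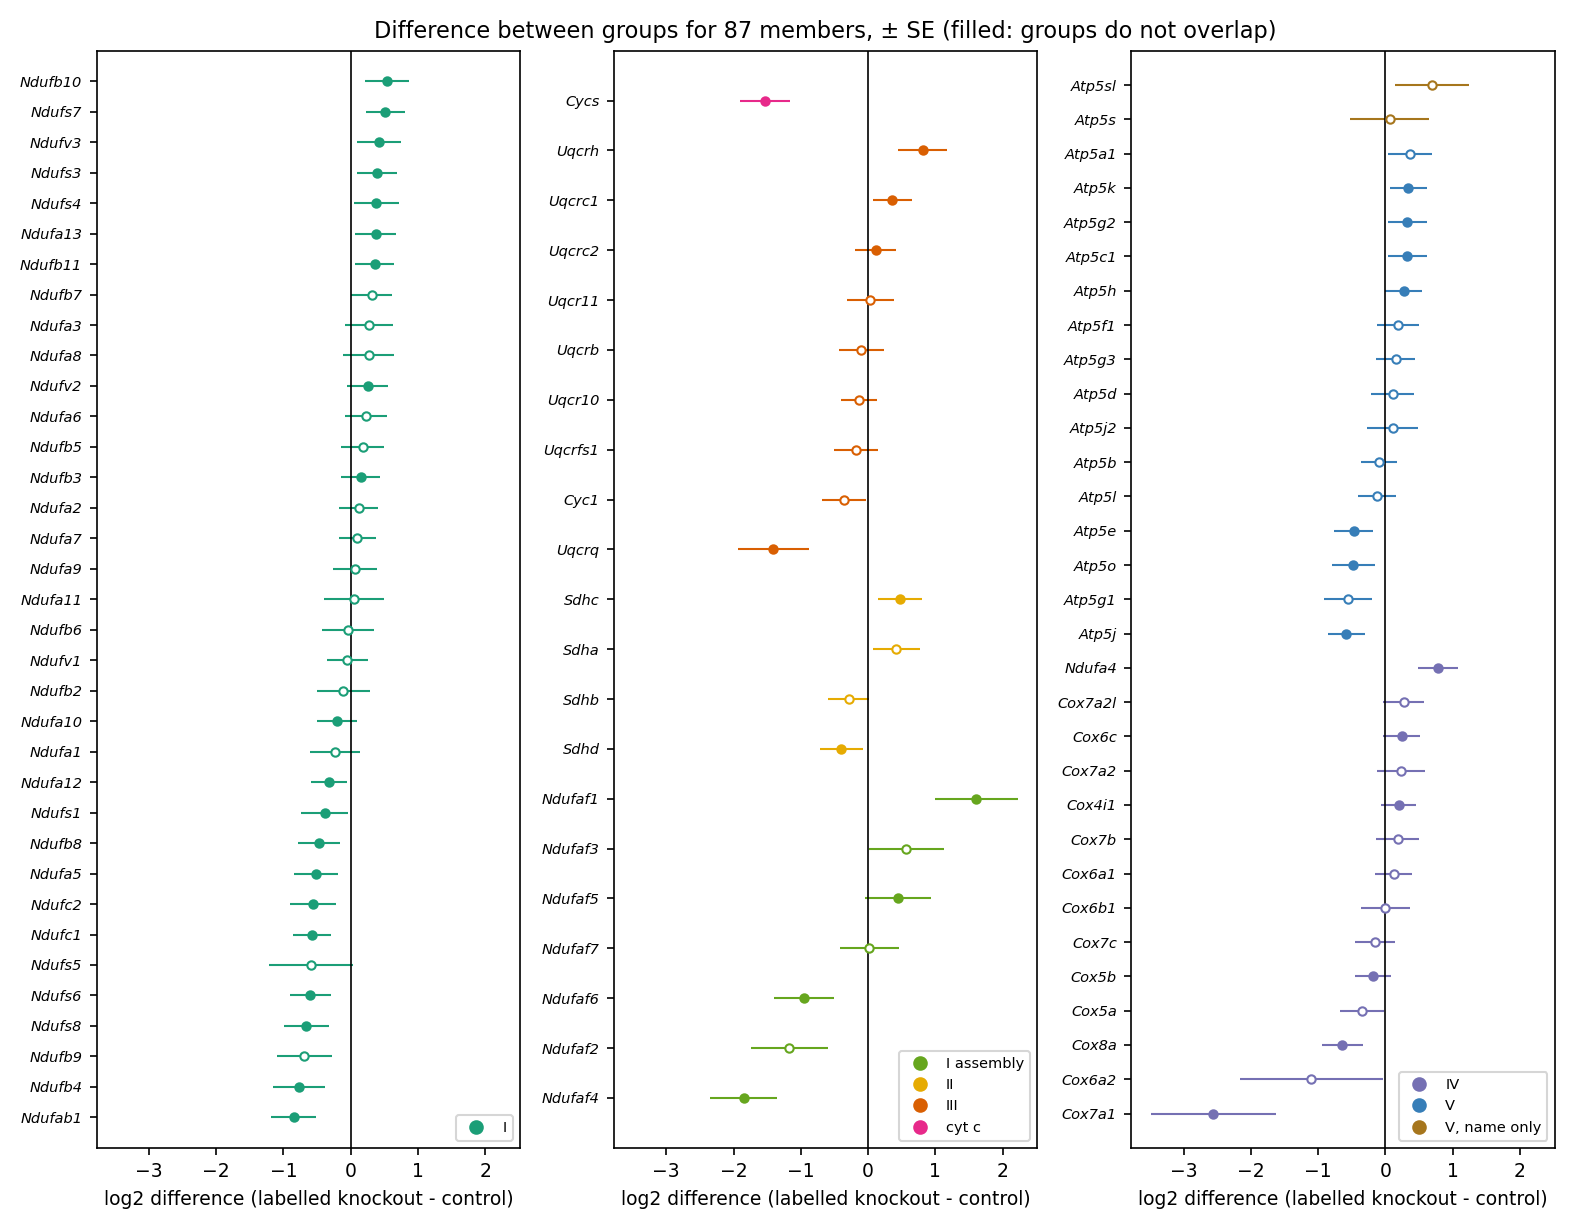
Log2 difference of 87 of the 88 members between the libraries labelled knockout and the controls, with its standard error from limma (2 libraries a group), coloured by complex. Filled points mark members whose groups do not overlap, open points those that overlap. Most subunits lie within 1 unit of 0, and Cycs, Ndufaf4, Cox7a1 and Uqcrq lie furthest below it.

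Cytochrome c (Cycs), the electron carrier between complexes III and IV, had the smallest p of all members. It was listed at 87.2 TPM in control 1, 114.9 TPM in control 2, 40.9 TPM in labelled knockout 1 and 28.1 TPM in labelled knockout 2. Both libraries labelled knockout lay at least 2-fold below each control, and their mean was 34.1% of the control mean. The log2 difference was -1.53 ± 0.37 SE (limma unadjusted p = 0.00272, adjusted p = 0.147), which did not pass the threshold over all genes. With labelled knockout 1 alone against the controls it was -1.27 (adjusted p = 0.134), and with labelled knockout 2 alone it was -1.80 (adjusted p = 0.0123). The gene lies at chr6:50562563-50566538 on the minus strand (GENCODE M21, GRCm38), and 33.5% of the 25-base words in its exons occur in other annotated genes, mostly in the near-copy Gm10053, which was not analysed here.

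Ndufaf4, an assembly factor that acts with Ndufaf3 early in building complex I, had the next smallest p. Its level was 26.1 TPM in control 1, 21.1 TPM in control 2 and, lower than both, 7.35 TPM and 4.52 TPM in the libraries labelled knockout 1 and 2. The latter mean was 25.1% of the control mean, and each labelled knockout lay below each control by at least 2-fold. The log2 difference was -1.85 ± 0.50 SE (limma unadjusted p = 0.0053, adjusted p = 0.167). It lies at chr4:24898083-24905001 on the plus strand, and 3.28% of its 25-base words occur elsewhere.

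Upstream sequences are shown for these 2 genes, the only members with a 2-fold lower level in all 4 pairs, and, for comparison, for Ndufab1 and Ndufa4, a lower and a higher member described below. Each is the 250 bases before the RefSeq start on the gene's own strand (GRCm38.p6), 5′ to 3′, and capitals mark matches to the motifs listed afterwards. They lie at chr6:50566570-50566819 (minus strand), chr4:24897833-24898082 (plus), chr7:122101849-122102098 (minus) and chr6:11907451-11907700 (minus).
Cycs: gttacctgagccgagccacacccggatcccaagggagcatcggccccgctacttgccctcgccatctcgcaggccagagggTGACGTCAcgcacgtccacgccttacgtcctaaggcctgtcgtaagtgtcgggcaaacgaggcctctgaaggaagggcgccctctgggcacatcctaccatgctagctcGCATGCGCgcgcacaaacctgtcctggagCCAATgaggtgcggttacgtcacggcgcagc
Ndufaf4: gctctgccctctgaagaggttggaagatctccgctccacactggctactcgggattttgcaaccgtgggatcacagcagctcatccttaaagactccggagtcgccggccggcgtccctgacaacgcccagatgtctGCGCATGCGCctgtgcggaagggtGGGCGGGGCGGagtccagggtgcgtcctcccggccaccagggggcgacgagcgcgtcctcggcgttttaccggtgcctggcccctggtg
Ndufab1: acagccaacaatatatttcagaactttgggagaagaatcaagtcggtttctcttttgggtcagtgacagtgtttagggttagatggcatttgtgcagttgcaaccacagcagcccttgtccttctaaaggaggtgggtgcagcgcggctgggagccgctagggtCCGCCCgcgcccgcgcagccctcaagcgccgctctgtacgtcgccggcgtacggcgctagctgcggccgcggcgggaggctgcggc
Ndufa4: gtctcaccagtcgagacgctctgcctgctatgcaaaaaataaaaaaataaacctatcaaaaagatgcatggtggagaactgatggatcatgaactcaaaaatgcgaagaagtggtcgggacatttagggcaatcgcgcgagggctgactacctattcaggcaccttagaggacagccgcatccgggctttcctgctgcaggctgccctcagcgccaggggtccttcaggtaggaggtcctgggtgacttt

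The windows searched ran from 250 bases before to 50 bases after the start, on both strands, and 71 of the 88 members had one in the RefSeq table. In Cycs the capitals mark a CRE (TGACGTCA) starting 169 bases before the start, a short NRF1 core (GCATGCGC) at 60 bases and a CCAAT box at 31 bases. In Ndufaf4 they mark a full NRF1 site (GCGCA, any base, GCGC) at 113 bases, which here contains 2 overlapping matches to the short core, and overlapping Sp1 matches (GGGCGG) at 89 and 84 bases. Ndufab1 had a single Sp1 match on the other strand at 86 bases and Ndufa4 had no match. These matches are descriptions of letters, not of bound sites.

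Over all windows, the full NRF1 site was present in 26.8% of the members, against 12.5% of tested genes and 5.19% of all genes in the RefSeq table. NRF1 is a transcription factor long known for its sites at respiratory genes. The short core was present in 18.3% of members against 6.4% of tested genes, the YY1 motif (AANATGGCG) in 14.1% against 6.63%, the ERR motif (AAGGTCA) in 11.3% against 3.73% and the CRE in 7.04% against 3.85%. The ETS motif CCGGAAG was in 23.9% of members against 21.8% of tested genes, and the CCAAT box in 43.7% against 43.5%. The shares were lower among the members for Sp1, at 43.7% against 71.9%, and for the E-box CACGTG, which Myc and related factors bind, at 7.04% against 12.2%. Over all genes in the table the shares were 3.05% for the short core, 2.76% for YY1, 5.38% for ERR, 2.03% for CRE, 9.93% for ETS, 41.1% for CCAAT, 38.2% for Sp1 and 8.09% for the E-box. No test was made of any of these shares.

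Complex I takes electrons from NADH. Of its 36 subunits, 9 lay above both controls in both libraries labelled knockout (25.0%, against 29.2% of all tested genes), 11 lay below (30.6%, against 18.3%) and 16 overlapped. Ndufv1, the catalytic subunit that binds NADH and flavin, overlapped between the groups, at 154 and 139 TPM in the controls and at 160.0 and 125 TPM in the libraries labelled knockout. Ndufs1, the largest iron-sulphur subunit, was at 73.5 and 63.2 TPM against 59.5 and 45.1 TPM, without overlap, with a log2 difference of -0.39 ± 0.35 SE (limma adjusted p = 0.638).

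At an unadjusted p under 0.05 there was 1 subunit of complex I (2.78%, against 14.9% of all tested genes). This was Ndufab1, the mitochondrial acyl carrier protein, which also serves fatty acid and lipoic acid synthesis. It was listed at 196 and 261 TPM in the controls and at 146 and 106 TPM in the libraries labelled knockout 1 and 2. The log2 difference was -0.85 ± 0.33 SE (limma unadjusted p = 0.0282, adjusted p = 0.273). The gene lies at chr7:122085403-122101886 on the minus strand, 14.1% of its 25-base words occur in other genes, and an exon overlaps a gene on the opposite strand.

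On the higher side, the largest non-overlapping differences in complex I subunits were those of Ndufb10, an accessory subunit of the membrane arm, and Ndufs7, an iron-sulphur subunit close to ubiquinone. Ndufb10 was at 84.4 and 123 TPM in the controls and at 137 and 162 TPM in the libraries labelled knockout (log2 difference 0.54 ± 0.33 SE, limma adjusted p = 0.481). Ndufs7 was at 140.3 and 154 TPM against 213 and 207 TPM (0.51 ± 0.29 SE, adjusted p = 0.443). Its neighbour in the same iron-sulphur chain, Ndufs8, went the other way, at 226 and 292 TPM against 199.8 and 132 TPM (-0.66 ± 0.33 SE, adjusted p = 0.386). Subunits of 1 complex thus lay on both sides of the controls.

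The most abundant subunits of complex I were Ndufb9 and Ndufa12, both accessory. Ndufa12 was at 1184 and 1174 TPM in the controls and at 879 and 1018 TPM in the libraries labelled knockout (log2 difference -0.32 ± 0.27 SE, limma adjusted p = 0.608). Ndufb9 was at 1394 and 1187 TPM in the controls, at 1249 TPM in labelled knockout 1 and at 509 TPM in labelled knockout 2, so the low value was in that library alone. Ndufs5, a small subunit facing the intermembrane space, showed the same split, at 161 and 339 TPM in the controls and 317 and 75.2 TPM in the libraries labelled knockout. For Ndufs5, 28% of the 25-base words are shared with BC002163, a processed pseudogene. That pseudogene was listed at 78.6, 73.1, 66.1 and 39.7 TPM in the same order. For Ndufb9, 26.2% are shared with the protein-coding gene Gm49356, which was not listed.

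The 7 complex I assembly factors listed under Ndufaf symbols had no common direction. Ndufaf1, part of the intermediate that builds the membrane arm, was listed at 14.0 and 3.83 TPM in the controls and at 19.7 and 31.4 TPM in the libraries labelled knockout, without overlap. Its log2 difference of 1.61 ± 0.62 SE (limma unadjusted p = 0.0305, adjusted p = 0.279) stood beside a difference of -1.63 between the controls themselves. Ndufaf6, an early factor, was at 23.2 and 22.8 TPM in the controls and at 12.9 and 10.1 TPM in the libraries labelled knockout (-0.95 ± 0.45 SE, adjusted p = 0.372). Ndufaf2, a late factor and paralogue of Ndufa12, was at 66.5 and 33.0 TPM against 34.1 and 11.9 TPM and overlapped. Ndufaf3, the partner of Ndufaf4, was at 19.8 and 27.2 TPM against 19.7 and 61.8 TPM, so it did not share the low values of Ndufaf4. Ndufaf5, which hydroxylates Ndufs7, and Ndufaf7, a methyltransferase, were at 8.69 to 25.5 TPM with log2 differences of 0.44 and 0.02.

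Complex II (succinate dehydrogenase) also belongs to the citric acid cycle and has no mitochondrially encoded subunit. Sdha, the flavoprotein that oxidizes succinate, was at 141 and 88.9 TPM in the controls and 169 and 134 TPM in the libraries labelled knockout, with overlap. The iron-sulphur subunit Sdhb, the most abundant of the 4, was at 429 and 501 TPM against 456 and 314 TPM, also with overlap. The membrane anchors differed in sign without overlap: Sdhc was at 127 and 161 TPM against 165 and 238 TPM (log2 difference 0.47 ± 0.33 SE, limma adjusted p = 0.535), and Sdhd was at 162 and 180.2 TPM against 154 and 108 TPM (-0.40 ± 0.32 SE, adjusted p = 0.584).

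In complex III, Uqcrq, a small subunit also known as the ubiquinone-binding protein QP-C, was the most abundant transcript and had the lowest log2 difference. It was listed at 1388 TPM in control 1, 1715 TPM in control 2, 1129.6 TPM in labelled knockout 1 and 297 TPM in labelled knockout 2. Labelled knockout 1 lay nearer to the controls, and labelled knockout 2 was 3.8-fold below it. The log2 difference of -1.41 ± 0.53 SE (limma unadjusted p = 0.0271, adjusted p = 0.273) was smaller than the -1.92 between the libraries labelled knockout 2 and 1. The gene lies at chr11:53427922-53430831 on the minus strand, and 0.384% of its 25-base words occur elsewhere.

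Uqcrh, the acidic hinge protein that helps dock cytochrome c, went the other way, at 149 and 236 TPM in the controls and at 258 and 421 TPM in the libraries labelled knockout. Its log2 difference was 0.81 ± 0.36 SE (limma unadjusted p = 0.0532, adjusted p = 0.342), and 22% of its 25-base words occur in other genes, the pseudogene Uqcrh-ps1 among them. The redox core overlapped between the groups: Cyc1, the cytochrome c1 subunit, was at 302 and 185 TPM against 193 and 175 TPM, and the Rieske protein Uqcrfs1 was at 147 and 168 TPM against 162 and 119 TPM. The large core proteins Uqcrc1 (0.36 ± 0.29 SE) and Uqcrc2 (0.11 ± 0.30 SE) lay above both controls with adjusted p of 0.589 and 0.900 in limma. Uqcr10, the other highly abundant subunit, was within 1038 to 1294 TPM in all 4 libraries.

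Complex IV (cytochrome c oxidase) had its highest transcripts in Cox4i1 and Cox8a, which encode the ubiquitous forms of subunits 4 and 8. Cox4i1 was at 1524 and 1459.8 TPM in the controls and at 1639.6 and 1784 TPM in the libraries labelled knockout (log2 difference 0.20 ± 0.26 SE, limma adjusted p = 0.768). Cox8a was at 1370.3 and 1636 TPM against 1162 and 796 TPM (-0.64 ± 0.30 SE, adjusted p = 0.362), again without overlap but in the other direction. Cox5a, another nuclear-encoded subunit, was at 428 and 465 TPM against 458 and 267 TPM and overlapped. Cox5b (-0.19 ± 0.27 SE) and Cox6c (0.24 ± 0.27 SE) did not overlap but differed little.

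Ndufa4, first assigned to complex I and now counted as a subunit of complex IV, was the member of complex IV with an unadjusted p under 0.05 and a higher level. It was listed at 346 TPM in control 1, 518 TPM in control 2, 766 TPM in labelled knockout 1 and 689.95 TPM in labelled knockout 2. Both libraries labelled knockout lay above both controls, with a log2 difference of 0.78 ± 0.30 SE (limma unadjusted p = 0.0309, adjusted p = 0.279), and with either library alone it was 0.85 and 0.70. The gene lies at chr6:11900292-11907497 on the minus strand. Its hypoxia-linked relative Ndufa4l2 was listed at 0 throughout.

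Several complex IV subunits exist as a ubiquitous form and a form restricted to certain tissues. The ubiquitous form held most of the level: Cox4i2, Cox6b2, Cox7b2, Cox8b and Cox8c were listed at 0, and Cox6a1 held 98.9% to 100% of the subunit 6a level. Cox7a1, the heart and muscle form of subunit 7a, was listed at 10.53 and 23.1 TPM in the controls, at 6.97 TPM in labelled knockout 1 and at 0 in labelled knockout 2. It made up 5.73% and 9.31% of the subunit 7a level in the controls, but 2.26% in labelled knockout 1 and 0% in labelled knockout 2, beside Cox7a2. Its log2 difference of -2.56 ± 0.93 SE (limma unadjusted p = 0.0231, adjusted p = 0.262) depends on that 0. Cox6a2, the muscle form of subunit 6a, was at 4.47 and 9.80 TPM against 11.8 TPM and 0, with overlap. Cox7a2l, whose protein can link complexes III and IV in supercomplexes, was at 518 and 469 TPM against 502 and 710.4 TPM. The allele of Cox7a2l carried by these cells was not examined.

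Complex V was the steadiest of the larger groups, with 0 of 15 members at an unadjusted p under 0.05 in limma (0 also with an adjusted p), against 14.9% of all tested genes. Without overlap, 4 lay above the controls (26.7%, against 29.2%) and 3 below (20.0%, against 18.3%), shares near those of the table. The catalytic subunits overlapped, with Atp5b at 1994 and 1710.3 TPM in the controls and 1756 and 1689 TPM in the libraries labelled knockout, and the alpha subunit Atp5a1 at 532 and 367 TPM against 690.03 and 469 TPM. Among the lower ones, Atp5j (coupling factor 6) was at 436 and 485 TPM against 322 and 291 TPM, with a log2 difference of -0.58 ± 0.28 SE (limma adjusted p = 0.370). Atp5o, the subunit that confers oligomycin sensitivity, differed by -0.48 ± 0.32 SE and the small epsilon subunit Atp5e by -0.47 ± 0.29 SE, with adjusted p of 0.516 and 0.469 in limma. The higher ones were Atp5k (0.34 ± 0.28 SE), the gamma subunit of the rotor Atp5c1 (0.32 ± 0.29 SE), Atp5g2 (0.32 ± 0.29 SE) and the stalk subunit Atp5h (0.27 ± 0.28 SE), with adjusted p of 0.607, 0.631, 0.633 and 0.684 in limma.

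Subunit c, which forms the rotating ring, is encoded by 3 genes whose mature proteins are the same. Atp5g1 was at 352 and 294 TPM in the controls and 298 and 159.9 TPM in the libraries labelled knockout, Atp5g2 at 741 and 609.8 TPM against 745 and 943 TPM, and Atp5g3 at 413 and 413 TPM against 400.3 and 521 TPM. Atp5g1 held 23.3%, 22.3% and 20.6% of their summed TPM in the first 3 libraries and 9.84% in labelled knockout 2. Atp5g2 made up 46.3% to 58.1%. The sum itself was 1506 and 1316 TPM in the controls and 1443 and 1624 TPM in the libraries labelled knockout. The summed level thus overlapped between groups while the share of Atp5g1 was low in 1 library.

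**Figure D4:**
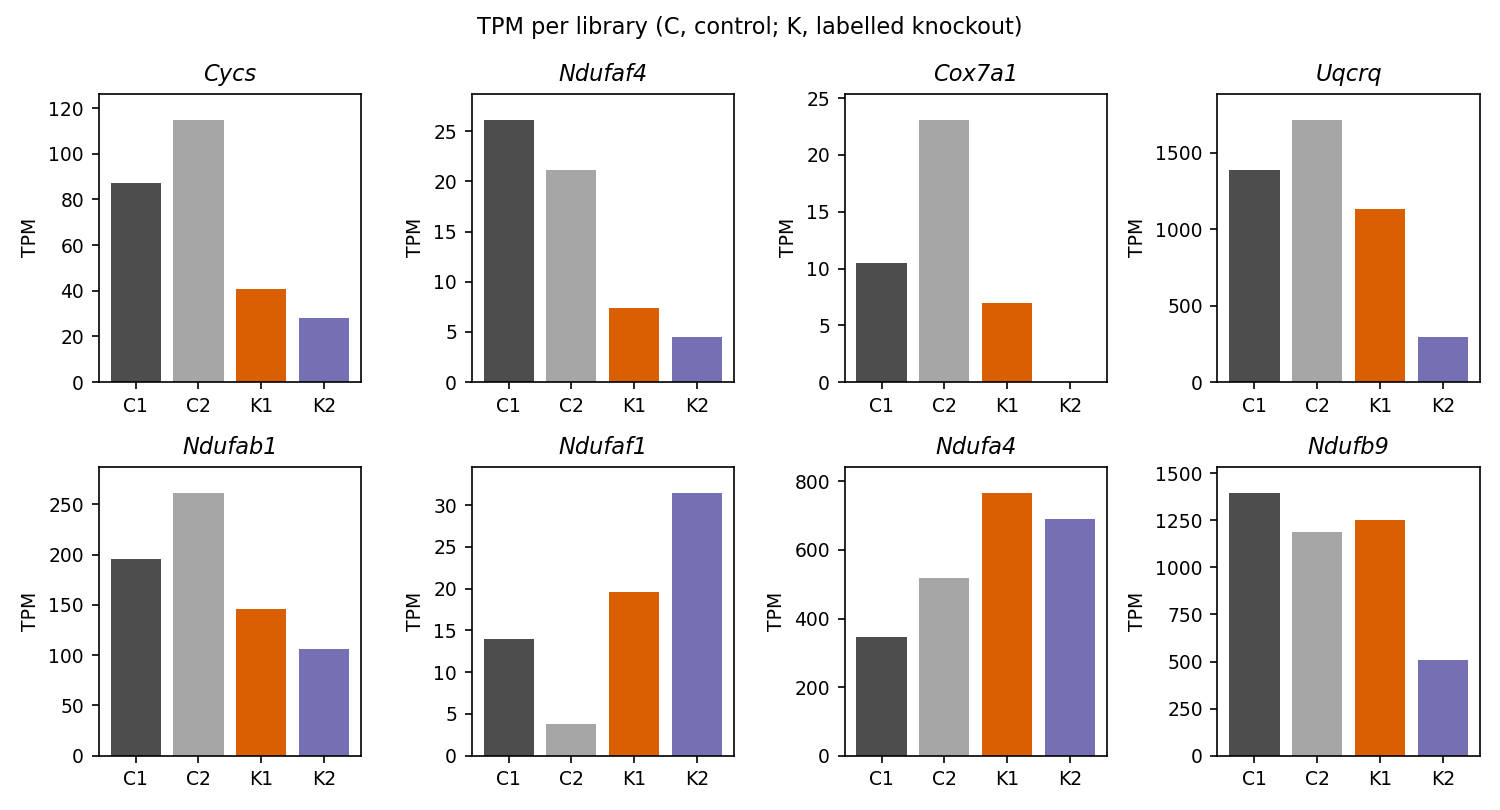
TPM of the 7 members with an unadjusted p under 0.05 and of Ndufb9, in controls 1 and 2 (C1, C2) and in the libraries labelled knockout 1 and 2 (K1, K2), with 1 bar per library and each axis starting at 0. Cycs, Ndufaf4 and Ndufab1 are low in both libraries labelled knockout, while Uqcrq and Ndufb9 are low mainly in labelled knockout 2.

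The libraries of a group also differed from each other. Between the controls, the SD over members of the difference in log2(TPM + 1) was 0.484, against 0.662 over all tested genes, and the median difference was 0.13 against -0.35. Thus 56.8% of members were higher in control 2 than in control 1, where 23.7% of all tested genes were. By 2-fold or more, 4 members were higher in control 2 (Ndufs5, Ndufb6, Cox7a1 and Atp5sl, against 1.84% of all tested genes), 2 were lower (Ndufaf1 and Atp5s, against 12.6%), and the 6 made up 6.82% of members against 14.5%. Median transcript length of the members was 731 nucleotides, and the Spearman correlation of the control 2 minus control 1 difference with length was -0.29 across the 87 annotated members, which share their libraries and are not independent.

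Between the libraries labelled knockout the SD over members was 0.755, against 1.04 over all tested genes, with a median of -0.18 for labelled knockout 2 minus labelled knockout 1, against -0.10 over all tested genes. Here 31 members were higher and 57 lower in labelled knockout 2, so 35.2% were higher, against 44.1% of all tested genes. By 2-fold or more, 7 were lower there: Ndufs5 (-2.06), Uqcrq (-1.92), Ndufaf2 (-1.45), Ndufb9 (-1.29), Ndufb4 (-1.01), Cox6a2 (-3.68) and Cox7a1 (-2.99), against 13.4% of all tested genes. A single member, Ndufaf3 (1.6), was higher by that much, against 9.91%, and the 8 made up 9.09% of members against 23.3%. For Uqcrq, Ndufb9 and Ndufb4 the controls differed by at most 0.31, so the low value in labelled knockout 2 was outside their spread. Ndufb4 shares 38.6% of its 25-base words with the processed pseudogene Ndufb4c, which was not listed. There is 1 library on each side of these contrasts and no test.

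**Figure D5:**
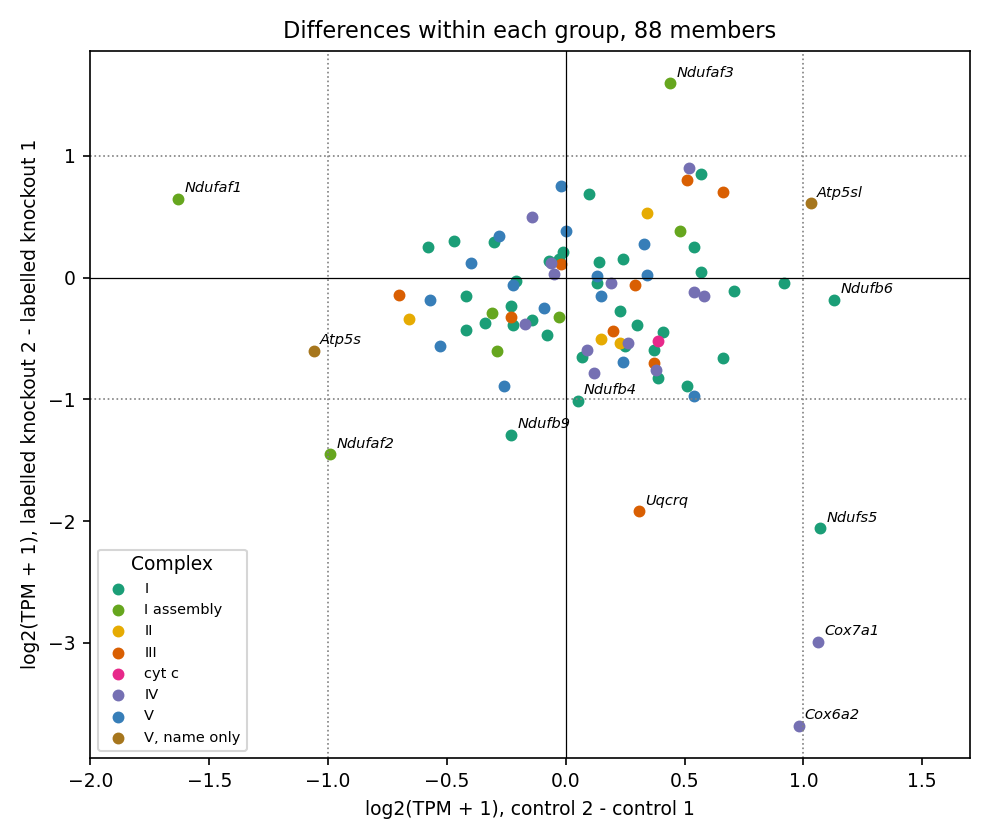
Difference between the replicates of each group for the 88 members on the log2(TPM + 1) scale, control 2 minus control 1 on the horizontal axis and labelled knockout 2 minus labelled knockout 1 on the vertical axis, coloured by complex. Dotted lines mark 2-fold; most members lie inside them, and Ndufs5, Uqcrq, Cox7a1 and Cox6a2 lie far below on the vertical axis.

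Because the libraries labelled knockout differed from each other, each was also set against the controls alone. With labelled knockout 2 alone, 10 members passed an adjusted p of 0.05 in limma, or 11.4%, against 9.26% of all tested genes, so the share was near that of the table. Of these, 9 were lower (4.86% of all tested genes) and 1 was higher (4.4%). The lowest adjusted p was that of Uqcrq, at a log2 difference of -2.37 ± 0.29 SE (adjusted p = 0.000105), followed by Cox7a1, Ndufb9, Cycs, Ndufs5, Cox6a2, Ndufb4, Ndufaf2 and Ndufaf4, with Uqcrh as the higher one (1.16 ± 0.35 SE, adjusted p = 0.0443). With labelled knockout 1 alone, 0 members passed, against 194 genes or 1.74% of the table. In these fits the lone library is assumed to vary as the controls do. Both use the same controls, so they are not independent.

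A list of 51 assembly and related factors with symbols outside the naming rule was examined. It held Atpif1, an inhibitor, and Lrpprc, Slirp and Taco1, whose roles are wider than assembly. The 49 found under a listed symbol were tested. Their median log2 difference was -0.21, with 17 positive and 32 negative, and at an unadjusted p under 0.05 there was 1 higher and 6 lower, against 9.25% and 5.68% of all tested genes, and 0 had an adjusted p under 0.05 in limma. Values in the libraries labelled knockout lay below both controls for 16 of the 49 and above both for 7, against 18.3% and 29.2% of all tested genes. The smallest p belonged to Tmem261 (current symbol Dmac1, a complex I assembly factor), at 43.7 and 65.4 TPM in the controls and 18.4 and 27.5 TPM in the libraries labelled knockout (limma adjusted p = 0.239). Cox18, which inserts a core subunit of complex IV into the membrane, was at 72.3 and 40.2 TPM against 29.4 and 16.0 TPM (adjusted p = 0.266). The other 4 were Coa4, Cox20, Sdhaf1 and Foxred1, named after their values were seen, and the higher one was Pet117, at 1.27 and 37.8 TPM in the controls and 46.7 and 62.7 TPM in the libraries labelled knockout.

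Regulators of nuclear respiratory genes and of mitochondrial DNA expression numbered 22, of which 19 were tested, with a median log2 difference of -0.04 and members on both sides of 0. Nrf1 was at 35.2 and 20.3 TPM in the controls and 31.6 and 21.4 TPM in the libraries labelled knockout, and Tfam, which packages mitochondrial DNA, was at 20.8 and 18.2 TPM against 14.4 and 23.4 TPM. Gabpa, an ETS factor, was at 14.8 and 17.5 TPM against 21.2 and 6.51 TPM. The coactivator Ppargc1a was listed at 0 in all libraries and its relative Ppargc1b was at 0.97 to 1.79 TPM. The nuclear receptor Esrra was at 73.4 and 37.0 TPM against 94.2 and 87.2 TPM (log2 difference 0.79 ± 0.40 SE, limma adjusted p = 0.399).

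Of the 19 tested regulators, 1 had an unadjusted p under 0.05, against 14.9% of all tested genes. This was Myc, a growth regulator that also drives many mitochondrial genes. It was at 716 TPM in control 1, 659 TPM in control 2, 311 TPM in labelled knockout 1 and 106 TPM in labelled knockout 2, and the mean of the latter pair was 30.4% of the control mean. The log2 difference was -1.91 ± 0.46 SE (limma unadjusted p = 0.00255, adjusted p = 0.147). Like Cycs and Ndufaf4, it was lower in both libraries labelled knockout and lowest in labelled knockout 2. Whether these levels are related was not tested.

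The 18 citric acid cycle and pyruvate dehydrogenase genes listed had a median log2 difference of 0.16, with 5 above both controls and 1 below, against 29.2% and 18.3% of all tested genes. In limma 0 had an unadjusted p under 0.05, against 14.9% of all tested genes, and 0 an adjusted one. Sucla2, a subunit of succinyl-CoA ligase, had the smallest p, at 70.9 and 49.1 TPM in the controls and 89.2 and 94.8 TPM in the libraries labelled knockout. Of 22 genes for ubiquinone synthesis, other electron entry and outer or inner membrane carriers, 1 was higher and 2 were lower at an unadjusted p under 0.05, against 9.25% and 5.68% of all tested genes. Vdac1, the main channel of the outer membrane, was at 274 and 224 TPM against 455 and 426 TPM (log2 difference 0.83 ± 0.28 SE, limma adjusted p = 0.239). Pdss1 and Coq4, both of ubiquinone synthesis, were the lower ones: Pdss1 was at 16.4 and 15.0 TPM against 5.29 TPM and 0, and Coq4 at 32.2 and 26.5 TPM against 16.4 and 5.14 TPM, with adjusted p of 0.204 and 0.267 in limma.

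Atpif1, which inhibits ATP synthase when it runs in reverse, lies outside the naming rule and was at 195 and 275 TPM in the controls and 331 and 229.9 TPM in the libraries labelled knockout. A pair of ATP synthase subunits listed under older symbols also fell outside it: Usmg5 (current symbol Atp5md) was at 309.6 and 607 TPM against 614.5 and 379 TPM, and 2010107E04Rik (Atp5mpl) at 333 and 359.7 TPM against 476 and 337 TPM. The complex I assembly factor Ndufaf8, listed as 1810043H04Rik, was at 79.3 and 65.3 TPM against 52.5 and 100.6 TPM. It was counted in neither group of assembly factors above. All of these genes overlapped between the groups. The 13 genes of the mitochondrial genome that encode respiratory subunits were not analysed here.

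Many members have processed pseudogenes or overlapping neighbours, which can draw reads in gene-level quantification. Of the 87 members found in GENCODE M21, 40 have at least 10% of their 25-base words in other genes, 11 share that much with a single gene listed in these files, and 28 have an exon overlapping a gene on the opposite strand. Across these 87 members the Spearman correlation of the difference between the groups with the share of such words was -0.03, and with transcript length 0.04, given as a description. Ndufaf4 and Uqcrq are among those with little shared sequence, whereas the level of Cycs is uncertain to the extent that such near-copies took part in the authors' quantification.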

How the data were processed

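Messenger RNA of 4 cultures of 4T1 cells was enriched with oligo(dT) beads, broken into fragments, tailed with poly(A), reverse transcribed by a chemistry derived from SMART-seq2 and amplified by PCR, per the labels' protocols. The deposited values are TPM per gene symbol. STAR 2.6.0 and RSEM 1.3.0 are named with build mm10 in the submitters' processing notes, and the annotation is not given in the sources used here. TPM holds no read number, so depth is unknown.

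Groups and replicate numbers came from the sample titles. Genes with at least 1 TPM in at least 2 libraries (11167) entered limma 3.58.1 (R 4.3.3, eBayes with trend) on the log2(TPM + 1) scale, two-sided, with Benjamini-Hochberg adjustment over all of them at 0.05. The procedure was also run on simulated data, with an outcome not reported here. With 2 libraries a group, a member that did not pass can still differ. The naming rule took, per complex, the most abundant members, those with the largest non-overlapping differences, core subunits along with Cox4i1 and Cox5a, and isoform pairs. It also took members at 0 in a library with at least 10 TPM in another and members with an unadjusted p under 0.01 in limma. From each pathway list it took the smallest p-values. Of the genes that met this rule, 1 is counted with the members but not reported singly here. Members named outside it were chosen after their values were seen. The members and lists were chosen with earlier results of these data known. Alternatives were another pseudocount (0.1), no filter, quantile normalization, TPM rescaled without ribosomal protein genes, a replicate block, eBayes settings and leaving out each library. Coordinates and shared 25-base words came from GENCODE M21 (GRCm38), and upstream sequences from RefSeq (GRCm38.p6).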

Additional observations from a re-analysis of the deposited data

How the results depend on the processing

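The count of members with an adjusted p under 0.05 in limma was 0 in every setting with 4 libraries, and 0 to 10 when a library was left out, with the 10 found without labelled knockout 1. Over all tested genes the count of 6 became 0 with a pseudocount of 0.1, without the filter, with quantile normalization, with rescaled TPM or with eBayes without trend, 52 with robust eBayes, and 0 to 1034 when a library was left out. With the replicate number as a block it was 2. Same-numbered libraries did not deviate together over the tested genes (correlation -0.0814). With so few libraries, this value cannot show whether same-numbered libraries were prepared together. The block left 0 members called, 2 higher and 6 lower at an unadjusted p under 0.05, and a median of 0.05. Members higher at an unadjusted p under 0.05 numbered 2, and 1 with rescaled TPM, 1 with eBayes without trend and 1 to 6 when a library was left out. Members lower numbered 5, and 3 with eBayes without trend and 1 to 20 when a library was left out. The members' median log2 difference of 0.05 ranged from -0.13 to 0.06 with 1 library left out, with -0.13 without labelled knockout 1, and -0.01 with rescaled TPM. Quantile normalization moved the median of all tested genes from 0.13 to 0.0 and the members' median to 0.04. The members' share of TPM differed by -0.15 points, by -0.4 points in rescaled TPM (exact permutation p = 0.667) and by -0.31 to 0.0 points when a library was left out. Members at least 2-fold lower in control 2 than in control 1 numbered 2, and 1 under quantile normalization. For 67 named genes, 268 values with 4 libraries stayed on the same side of the threshold with 4 changes of sign, and of 268 with a library left out 13 passed it newly and 26 changed sign. As few genes pass with 2 libraries against 2, this says little of stability. The causes were not tested. Depth is unknown from TPM, so no detection limit could be set for weakly expressed members.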
